A study of Homo sapiens with 9 samples.

Results

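The genes described here encode enzymes that cut the extracellular matrix, their inhibitors, and the plasminogen activators that work beside them. There are 9 of them among the 27677 genes of the count table: the collagenase gene MMP1, the membrane-anchored metalloproteinase genes MMP14 and MMP15, the inhibitor genes TIMP1, TIMP2 and TIMP3, the activator genes PLAU and PLAT, and the receptor gene PLAUR. They were taken by name, and were proposed with differences between the groups of these same libraries in view, so their levels and differences are given as a description, with intervals and no p-value. Of the 9, 7 passed the filter on low counts that left 14678 genes, each of them with all 9 libraries above its minimum, and PLAT and PLAUR did not.

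The cells were Caco-2, an established line from a human colon adenocarcinoma that is widely taken as a stand-in for gut epithelium, grown in aMEM with lipid-depleted serum. Gene expression was measured by sequencing poly(A) RNA in 9 libraries, 3 in each of 3 groups: 10 µM lovastatin with 10 µM SGA360, 10 µM lovastatin with 10 µM SGA315, and 10 µM lovastatin alone, each for 48 h. Lovastatin, an inhibitor of HMG-CoA reductase, was thus present in every library, and cells without it were not analysed here. SGA360 and SGA315 both bind AHR, the aryl hydrocarbon receptor, which acts on transcription once a ligand is bound, and were given at 1 dose and 1 time. Both ligand groups were set against the same 3 lovastatin libraries, so these 2 comparisons share their controls.

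Matrix metalloproteinases are zinc enzymes made as inactive precursors. MMP1 is secreted and opens the triple helix of fibrillar collagens, whereas MMP14 and MMP15 are held in the plasma membrane, where MMP14 also activates other metalloproteinases with TIMP2 as a bridge. TIMPs block the active site, and the urokinase and tissue-type activators, encoded by PLAU and PLAT, turn plasminogen into plasmin, which cuts fibrin and activates some precursors. In the intestine MMP1 is known chiefly from fibroblasts and wound-edge epithelium, and carcinoma cell lines can express it as well.

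Counts over 1 transcript entry per gene summed to 12334083 to 16870148 per library with SGA360, 12885433 to 14736972 with SGA315 and 14125967 to 16299266 with lovastatin alone. Levels are given in CPM, the count scaled by library total and TMM factor, and a library with no count of a gene could hold up to 3 counts of it, which is 0.178 to 0.243 CPM on the raw total, without the TMM factor. Nothing in the labels says that the 3 libraries of a group are separate cultures, so intervals and p-values rest on a spread between libraries that could be technical. By correlation, the nearest neighbour of all 9 libraries was in the same group. Of the 13 epithelial markers, 11 passed the filter, and CDX1 was at 0 in every library. Their summed level ran from 5693 to 6130 CPM with SGA360, from 4204 to 4317 CPM with SGA315 and from 7726 to 7831 CPM with lovastatin alone, and KRT8 was the largest part of it in each group. Single markers went other ways: FABP1 averaged 23.9, 56.99 and 29.9 CPM with SGA360, SGA315 and lovastatin alone, CDX2 80.2, 117 and 75.9 CPM, and ALPI 9.75, 22.6 and 7.58 CPM. Of the 10 fibroblast and smooth muscle markers 3 passed, and their sum was 206 to 218 CPM with SGA360, 216 CPM with SGA315 and 409 to 418 CPM with lovastatin alone, most of it PDGFRA. COL1A1 averaged 30.2, 21.3 and 44.1 CPM with SGA360, SGA315 and lovastatin alone, and PDGFRB 8.07, 6.55 and 8.78 CPM. COL3A1 and LUM averaged at most 0.462 CPM in each group, and DCN, POSTN, ACTA2, COL1A2 and THY1 at most 0.0456 CPM. The part of the marker levels in the results was not tested.

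The site that binds the catalytic zinc shows how near and how far the metalloproteinase genes are in sequence, which bears on whether their reads could be mixed. The coding sequence of that site is given 5′ to 3′ from the GENCODE 29 transcripts for the 3 member enzymes and for MMP10, the neighbour of MMP1 in its gene cluster, with the codons of the 3 zinc-binding histidines in capitals.
MMP1: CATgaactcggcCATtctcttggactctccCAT
MMP10: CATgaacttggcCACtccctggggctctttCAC
MMP14: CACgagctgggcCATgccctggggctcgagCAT
MMP15: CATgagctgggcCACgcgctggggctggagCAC
Over these 33 bases MMP10 has 25 in common with MMP1, MMP14 has 23 and MMP15 has 21. No stretch of 50 bases was shared between the transcripts of MMP1 and those of MMP10, MMP3, MMP14, MMP15 or MMP24, nor among the TIMP transcripts or between PLAU and PLAT. MMP10 and MMP3 did share such stretches (118, counting each one on both strands), so their counts are uncertain.

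MMP1 was lower with either ligand, and lower with SGA360 than with SGA315. Its level was 22.1, 21.9 and 22.4 CPM in the 3 SGA360 libraries, 44.6, 41.9 and 43.7 CPM in the SGA315 libraries, and 81.2, 94.1 and 89.5 CPM in the libraries with lovastatin alone. The 3 groups stood apart with no overlap, SGA360 lowest and lovastatin alone highest. The raw counts behind these levels were 284 to 377 with SGA360, 577 to 678 with SGA315 and 1205 to 1379 with lovastatin alone, so counting error was small beside the differences. In RNA of whole cultures, fewer expressing cells and less RNA per cell cannot be told apart.

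The difference of MMP1 was −1.995 ± 0.053 (log2, SE; 95% interval −2.10 to −1.89) for SGA360 against lovastatin alone, a level 3.99-fold lower. For SGA315 against lovastatin alone it was −1.02 ± 0.047 (−1.11 to −0.93), 2.03-fold lower. Set directly against SGA315, SGA360 gave −0.97 ± 0.061 (−1.10 to −0.85), 1.97-fold lower. Ranked from the most negative log2 fold change among the 14678 genes tested, MMP1 held place 13 for SGA360, place 299 for SGA315 and place 152 for SGA360 against SGA315. The median log2 fold change over all genes tested was 0.02, 0.04 and −0.01 in these 3 comparisons.

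WTAPP1, a transcribed pseudogene read from the opposite strand, overlaps MMP1. In the GENCODE 29 gene models 150 exonic bases are shared, of 1970 in MMP1 and 3331 in WTAPP1. It had 5.13, 4.18 and 4.96 CPM with SGA360, 7.77, 7.22 and 7.34 CPM with SGA315, and 13.3, 16.8 and 15.4 CPM with lovastatin alone. The order of the groups was that of MMP1, with no overlap. Its log2 fold change was −1.68 ± 0.110 for SGA360 and −1.02 ± 0.101 for SGA315 against lovastatin alone. WTAPP1 counts came to 23.2%, 19.1% and 22.2% of MMP1 counts with SGA360, 17.4%, 17.2% and 16.8% with SGA315, and 16.4%, 17.9% and 17.2% with lovastatin alone. Whether the counting used strand is not given in the sources used here, so reads of the 2 genes over the shared bases cannot be told apart. The second MMP1 entry of the table held 97.08% of the counts of the one used.

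**Figure D1:**
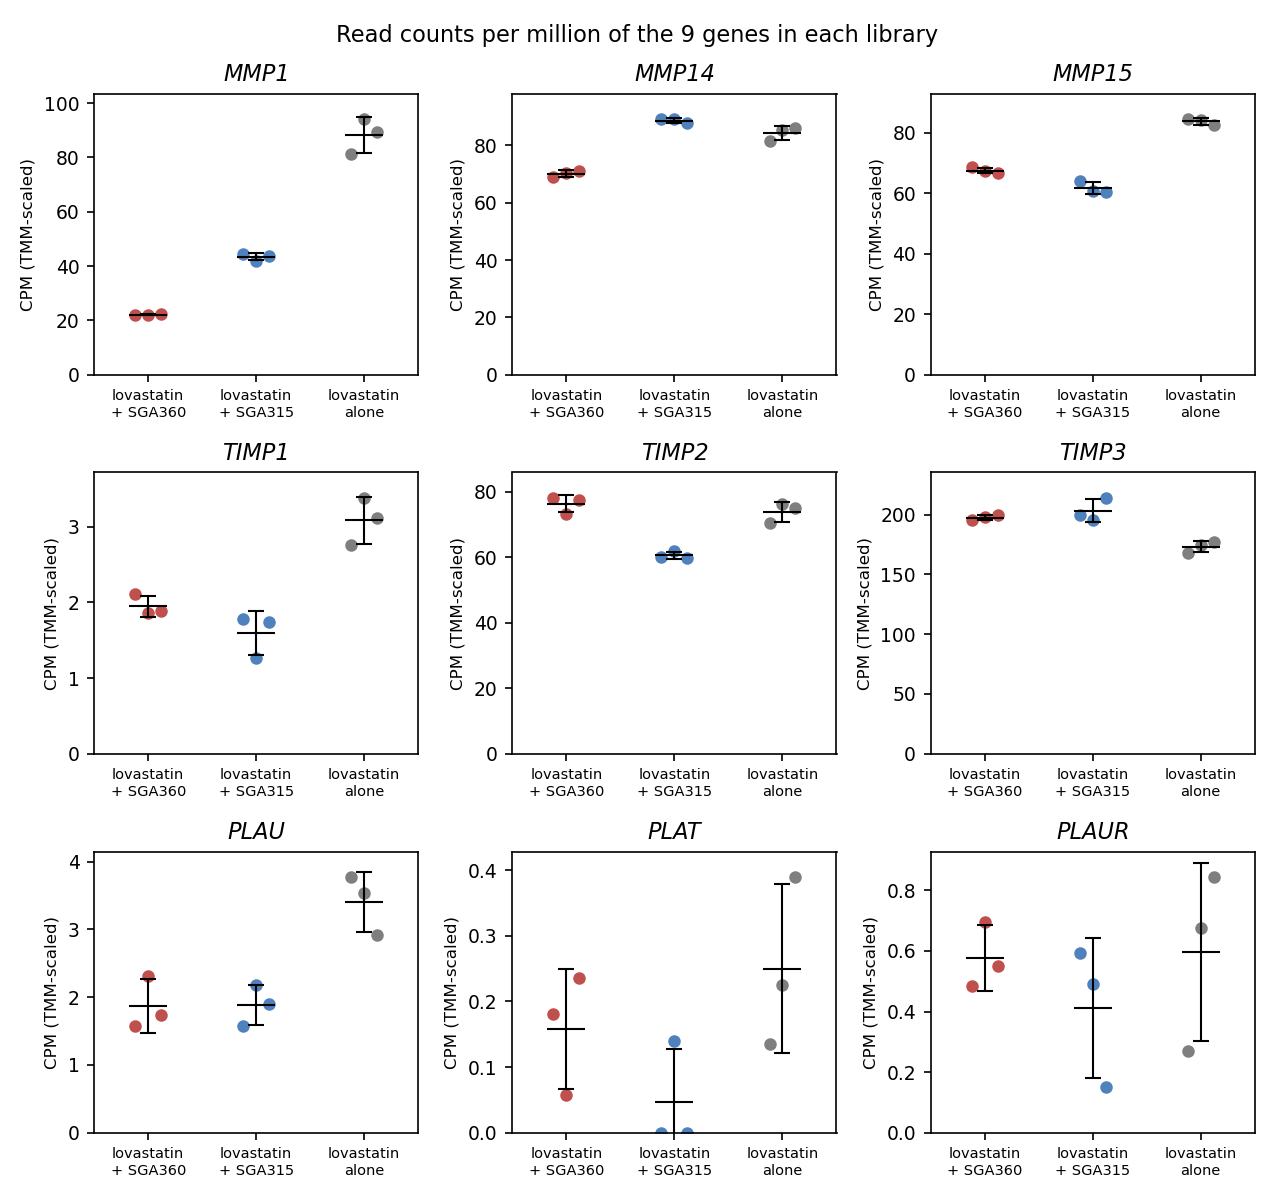
Level of each of the 9 genes in CPM (TMM-scaled, vertical axis from 0 in each panel) for lovastatin with SGA360, lovastatin with SGA315 and lovastatin alone; points are libraries, the wide dash is the group mean and the bar its SD (n = 3). MMP1 stands at 3 separate levels, 22.1, 43.4 and 88.3 CPM, while TIMP3 is lowest in the libraries with lovastatin alone.

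MMP14 differed between the 2 ligands. It had 68.9, 70.5 and 71.1 CPM with SGA360, 89.2, 89.1 and 87.7 CPM with SGA315, and 81.6, 85.3 and 86.2 CPM with lovastatin alone. All 3 SGA360 libraries were below, and all 3 SGA315 libraries above, those with lovastatin alone. The log2 fold change was −0.27 ± 0.040 for SGA360 and 0.07 ± 0.039 for SGA315 against lovastatin alone, and the interval of the SGA315 value ran from −0.0046 to 0.15. SGA360 against SGA315 gave −0.34 ± 0.039 (−0.42 to −0.26). Scaling to library totals only, which moved the median of all genes to 0.136 for SGA360 and 0.156 for SGA315, put the SGA315 value at 0.19.

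MMP15, the second membrane-anchored enzyme, was lower with both. Its level was 68.6, 67.3 and 66.7 CPM with SGA360, 64.1, 60.8 and 60.3 CPM with SGA315, and 84.5, 84.1 and 82.6 CPM with lovastatin alone. No group overlapped another. The log2 fold change against lovastatin alone was −0.31 ± 0.040 for SGA360 and −0.44 ± 0.041 for SGA315. Between the ligands it was 0.13 ± 0.042 (0.04 to 0.21), which was 0.12 without SGA360 replicate 1, where its call was lost. Of the 2 ligands, SGA360 thus had the lower level of MMP1 and MMP14 and the higher level of MMP15.

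Among the inhibitors, TIMP3, which is bound to the matrix, was the one with higher levels in both ligand groups. It had 195, 198 and 199.7 CPM with SGA360, 200.1, 196 and 214 CPM with SGA315, and 168, 174 and 177 CPM with lovastatin alone. Every ligand library exceeded every library with lovastatin alone, and the ligand groups overlapped each other. The log2 fold change was 0.19 ± 0.032 for SGA360 and 0.23 ± 0.032 for SGA315, with −0.04 ± 0.031 (−0.10 to 0.02) between them.

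TIMP2, the inhibitor that also bridges MMP14 to its substrate, was lower with SGA315. It had 78.1, 73.3 and 77.6 CPM with SGA360, 60.1, 61.8 and 59.9 CPM with SGA315, and 70.5, 76.2 and 74.9 CPM with lovastatin alone. The SGA315 libraries lay below all others, and the SGA360 libraries overlapped those with lovastatin alone. The log2 fold change was 0.05 ± 0.041 (−0.04 to 0.13) for SGA360 and −0.28 ± 0.043 for SGA315, and SGA360 against SGA315 gave 0.33 ± 0.043 (0.25 to 0.42). With totals only, the SGA360 value was 0.16, and without lovastatin replicate 1 it was −0.003.

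TIMP1, which encodes a soluble inhibitor, was scarce. It had 2.11, 1.86 and 1.89 CPM with SGA360, 1.78, 1.26 and 1.74 CPM with SGA315, and 2.76, 3.38 and 3.11 CPM with lovastatin alone. Both ligand groups lay below lovastatin alone, and the 3 SGA360 libraries were all above those of SGA315. The counts were 24 to 35 with SGA360, 18 to 27 with SGA315 and 41 to 48 with lovastatin alone. The log2 fold change was −0.65 ± 0.194 (−1.04 to −0.26) for SGA360 and −0.94 ± 0.208 (−1.36 to −0.53) for SGA315, with 0.29 ± 0.228 (−0.16 to 0.75) between the ligands.

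PLAU, the urokinase gene, was lower to a like extent with each ligand. Its level was 1.57, 2.32 and 1.73 CPM with SGA360, 1.58, 2.17 and 1.89 CPM with SGA315, and 3.77, 3.53 and 2.92 CPM with lovastatin alone. The ligand groups overlapped each other and not lovastatin alone. The log2 fold change was −0.84 ± 0.195 (−1.23 to −0.45) for SGA360 and −0.85 ± 0.200 (−1.25 to −0.46) for SGA315. Between them it was 0.01 ± 0.226, with an interval of −0.44 to 0.46 that leaves room for a difference either way. C10orf55, on the opposite strand, shares 916 exonic bases with PLAU, and its counts were 5, 7 and 10 with SGA360, 6, 6 and 3 with SGA315, and 16, 18 and 18 with lovastatin alone. Those counts could include reads of PLAU, and the reverse, since strand use is not given.

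PLAUR, the receptor that holds urokinase at the cell surface, and PLAT, the tissue-type activator, were near the limit of detection. PLAUR had 8, 12 and 7 counts with SGA360, 9, 7 and 2 with SGA315, and 4, 9 and 13 with lovastatin alone. The groups overlapped, and the ratio of depth-scaled summed counts was 0.973 (95% interval 0.546 to 1.73) for SGA360 and 0.707 (0.365 to 1.34) for SGA315 against lovastatin alone. PLAT had 3, 1 and 3 counts with SGA360, 0, 2 and 0 with SGA315, and 2, 3 and 6 with lovastatin alone. Its ratio was 0.596 (0.196 to 1.68) for SGA360 and 0.186 (0.020002 to 0.851) for SGA315. A difference of PLAUR was not detectable at this depth. These intervals cover counting error only.

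Counted together, 1 of the 7 genes tested was called higher (TIMP3) and 5 were called lower (MMP1, MMP14, MMP15, TIMP1 and PLAU) with SGA360, at an adjusted p under 0.05 in edgeR's quasi-likelihood test. With this rule 62.7% of all genes tested were called, 31.4% higher and 31.4% lower. With SGA315, TIMP3 was again called higher, and MMP1, MMP15, TIMP1, TIMP2 and PLAU were called lower, where 69.2% of all genes were called, 36% higher and 33.2% lower. In SGA360 against SGA315, TIMP2 and MMP15 were called higher and MMP1 and MMP14 lower, where 42.7% of all genes were called, 21.8% higher and 20.9% lower. The genes were chosen on these contrasts, and nothing is read from these counts. Libraries of the groups compared stood fully apart for 6 of 7 genes with SGA360, where that held for 66.3% of all genes (33.4% higher and 32.9% lower), for 7 of 7 with SGA315, 2 of them higher and 5 lower (70.3% of all genes, 36.6% higher and 33.8% lower), and for 5 of 7 between the ligands (49.1%). The median log2 fold change of the 7 was −0.31, −0.44 and 0.01 in the 3 comparisons.

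The split of the calls depends on the scaling. With totals only, 2 genes were called higher and 5 lower for SGA360, TIMP2 being the addition, and 2 higher and 5 lower for SGA315, with MMP14 added. Over all genes the split was then 6464 higher and 3138 lower for SGA360, against 4603 and 4603 with TMM, and 6926 higher and 3628 lower for SGA315, against 5285 and 4872 with TMM. MMP1, MMP15, TIMP1, TIMP3 and PLAU kept their direction against lovastatin alone under both scalings.

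Levels were compared between genes per kilobase of transcript. In cells with SGA360 the order was TIMP3 with 42.9 ± 0.48 CPM per kilobase (SD, n = 3), TIMP2 with 20.9 ± 0.717, MMP14 with 18.8 ± 0.312, MMP15 with 15.9 ± 0.230 and MMP1 with 11.2 ± 0.124. With SGA315 it was TIMP3 with 44.1 ± 2.05, MMP14 with 23.8 ± 0.214, MMP1 with 22.04 ± 0.688, TIMP2 with 16.6 ± 0.284 and MMP15 with 14.5 ± 0.487. With lovastatin alone MMP1 led with 44.8 ± 3.33, before TIMP3 with 37.6 ± 0.994, MMP14 with 22.6 ± 0.642, TIMP2 with 20.2 ± 0.823 and MMP15 with 19.7 ± 0.240. MMP1 was therefore the first of the 9 genes with lovastatin alone and the fifth with SGA360. Only TIMP2 and MMP15 with lovastatin alone were neighbours whose mean ± SD overlapped among these 5 genes.

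The other genes followed in the same order in each group. TIMP1 had 2.19, 1.79 and 3.46 CPM per kilobase with SGA360, SGA315 and lovastatin alone, and PLAU had 0.705, 0.708 and 1.28. PLAUR had 0.372, 0.266 and 0.385, and PLAT 0.0585, 0.0173 and 0.0923. The secreted collagenase gene and the 2 membrane enzyme genes were thus well above the plasminogen activator genes per length in every group. Transcript lengths were those of the entry used for each gene, so other isoforms would move these levels.

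**Figure D2:**
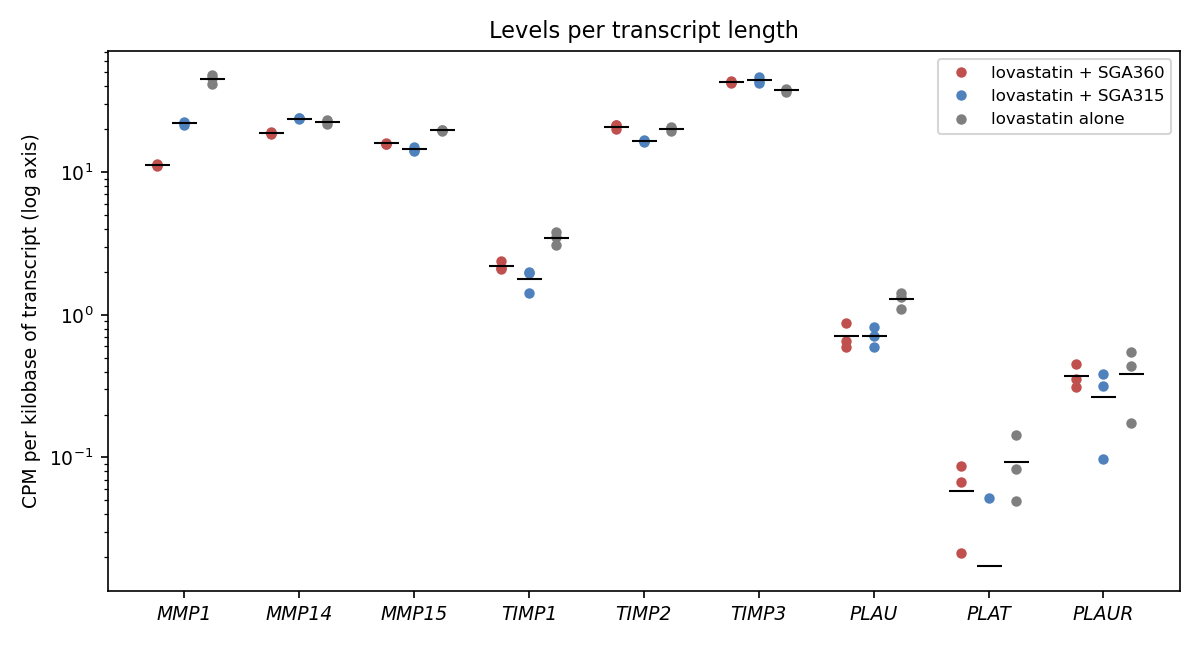
Level per kilobase of transcript (CPM per kilobase, log axis) of the 9 genes in each library, with the group mean as a dash; libraries at 0 (2 of PLAT with SGA315) are not drawn. MMP1 is spread over 11.2 to 44.8 CPM per kilobase between the groups, while TIMP3 stays between 37.6 and 44.1.

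The sequences before the start sites of TIMP1 and PLAU, which were lower with both ligands, and of TIMP3, which was higher with both, are given here. The window of MMP15, also lower with both, is described below without its sequence. Each is the 250 bases before the start site, 5′ to 3′ on the gene's strand, from RefSeq promoters on GRCh38.p14, in which 6 of the 9 genes were matched. MMP1, TIMP2 and PLAT were not matched, so the motifs near the start of MMP1 are not described. Capitals mark, on either strand, the AHR core GCGTG, the GC box GGGCGG, and the AP-1 letters TGAGTCA or the like letters TGAGTAA, each also as its reverse complement.
TIMP1, chrX:47582186-47582435, plus strand: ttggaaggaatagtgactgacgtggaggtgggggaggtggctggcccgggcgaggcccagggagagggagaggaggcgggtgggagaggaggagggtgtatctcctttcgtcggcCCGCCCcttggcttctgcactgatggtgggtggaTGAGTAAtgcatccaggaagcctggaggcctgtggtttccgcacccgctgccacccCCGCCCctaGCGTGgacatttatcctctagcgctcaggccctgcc
PLAU, second start site, chr10:73910882-73911131, plus strand: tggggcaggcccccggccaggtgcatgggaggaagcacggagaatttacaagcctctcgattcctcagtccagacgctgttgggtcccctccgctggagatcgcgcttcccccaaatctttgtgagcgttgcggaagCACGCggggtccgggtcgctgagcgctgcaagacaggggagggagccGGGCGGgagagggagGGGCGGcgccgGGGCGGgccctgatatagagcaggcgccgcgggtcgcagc
TIMP3, chr22:32801455-32801704, plus strand: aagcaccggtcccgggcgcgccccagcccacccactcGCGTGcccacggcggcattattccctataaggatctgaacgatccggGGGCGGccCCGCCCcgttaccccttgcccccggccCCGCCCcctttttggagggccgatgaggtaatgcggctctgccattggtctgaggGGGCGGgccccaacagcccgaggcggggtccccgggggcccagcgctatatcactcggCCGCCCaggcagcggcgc
All 3 hold 1 AHR core, at −36 to −32 in TIMP1, −113 to −109 in PLAU and −213 to −209 in TIMP3, counted back from the start site. TIMP1 also has TGAGTAA at −101 to −95. TIMP3 has 5 GC boxes, PLAU 3 and TIMP1 2. No 2 of these motifs overlap in the 3 windows. PLAU has another start site in the table, used by 1 transcript against 3, and its window holds none of these motifs.

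The AHR core was found in 32.2% of 35116 promoter windows of the same length, the GC box in 42.6%, TGAGTCA in 4.2% and TGAGTAA in 2.21%. The window of PLAUR holds TGAGTCA at −186 to −180 and 1 AHR core, that of MMP14 holds 1 GC box, and that of MMP15 holds 5 GC boxes. The AHR core stood in the windows of TIMP1 and PLAU, which were lower, and of TIMP3, which was higher. It was not found in the MMP15 window, but no MMP15 transcript was matched to that start site. Whether the core bears on any of these differences was not tested. These letters describe the sequence, not a bound site.

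MMP1 lies in a cluster of 9 metalloproteinase genes, and the other 8 were barely detected. MMP10, the stromelysin gene beside MMP1, had 1, 6 and 3 counts with SGA360, 6, 9 and 7 with SGA315, and 12, 11 and 13 with lovastatin alone. The SGA360 and SGA315 libraries all lay below those with lovastatin alone. MMP10 passed the filter only through the lovastatin libraries, so a difference was built into its selection and no p-value is given; its log2 fold change was −1.90 ± 0.464 with SGA360 and −0.67 ± 0.387 with SGA315. The summed counts of MMP7 were 8, 4 and 1 with SGA360, SGA315 and lovastatin alone, those of MMP20 were 2, 2 and 8, and those of MMP3 were 6, 2 and 2. MMP13 had 2, 3 and 1 and MMP8 had 1, 1 and 0, while MMP27 and MMP12 had 0 in every library. MMP1 with 1028, 1853 and 3837 summed counts was the one abundant transcript of the cluster.

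The 5 genes whose profile over the 9 libraries was nearest to that of MMP1, by root mean square difference in log2 CPM relative to lovastatin alone among 11510 genes, were BTNL8 (0.170), PSAPL1 (0.210), DRD2 (0.285), LINC00668 (0.299) and TNFRSF11B (0.310). BTNL8, a butyrophilin-like gene of gut epithelium, averaged 8.86 ± 0.739 CPM with SGA360, 14.0 ± 0.955 with SGA315 and 29.7 ± 2.15 with lovastatin alone (SD, n = 3). TNFRSF11B, which encodes the decoy receptor osteoprotegerin, averaged 6.88 ± 1.28 CPM with SGA360, 12.9 ± 2.02 with SGA315 and 21.3 ± 1.504 with lovastatin alone. All 5 were lowest with SGA360. They were picked for this likeness, so it carries no test.

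**Figure D3:**
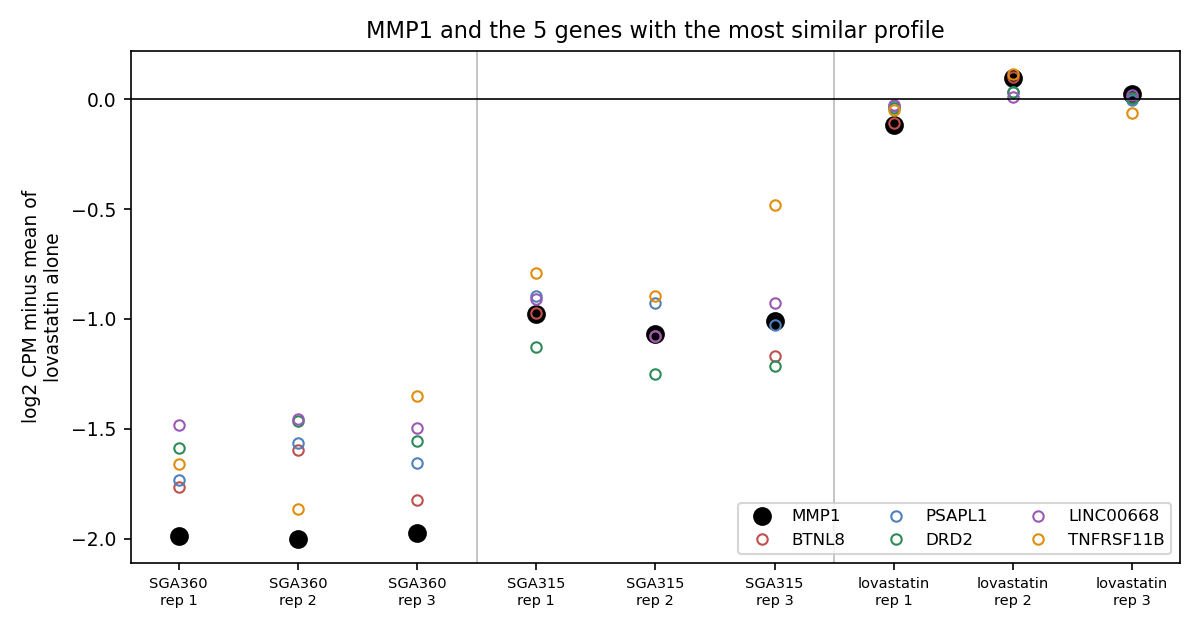
Log2 CPM minus the mean of the 3 libraries with lovastatin alone (vertical axis) in each of the 9 libraries for MMP1 (filled) and the 5 genes nearest to it in profile (open). In the SGA360 libraries MMP1 lies below the 5 others, with log2 fold changes of −1.73 for BTNL8 and −1.48 for LINC00668 against −1.995 for MMP1.

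The lists from here on were chosen with earlier results of these data known, and most genes named from them were picked for a small adjusted p. Their adjusted p-values thus describe these libraries and are no independent support. Other metalloproteinases were called in both directions with SGA315, whereas with SGA360 the only lower call was built in by the filter. Of the 20 in the list 6 were tested, with 4 called higher and 1 lower with SGA360 and 3 higher and 1 lower with SGA315; the median log2 fold change was 0.42 and 0.51. The gene called lower was MMP10 with SGA360 and MMP24 with SGA315. MMP10 passed the filter only through the lovastatin libraries, so nothing is read from its call. MMP24, a membrane-type enzyme, had 98.2 ± 3.69 CPM with SGA360, 64.0 ± 3.31 with SGA315 and 85.8 ± 3.95 with lovastatin alone (SD, n = 3). It rose with SGA360 (log2 0.20 ± 0.040, adjusted p = 1.36e-05) and fell with SGA315 (−0.42 ± 0.043, adjusted p = 1.89e-13), whereas MMP14 had values of −0.27 and 0.07. MMP17 was at 1.36 ± 0.236 CPM with SGA360, 1.68 ± 0.193 with SGA315 and 0.703 ± 0.162 with lovastatin alone (log2 0.94 ± 0.303 and 1.24 ± 0.294). It passed the filter through the ligand groups, since 2 of the 3 libraries with lovastatin alone reached the minimum, and no p-value is given. In the other lists the calls of ADAMTS4 with SGA315, of EHF and DDR2 with both ligands, and of A2M between the ligands likewise rest on genes whose lower group did not reach the minimum in all 3 libraries. MMP2, MMP7 and MMP9 did not pass the filter.

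Of the 19 ADAM and ADAMTS proteases 12 were tested, with 5 higher and 4 lower with SGA360 and 5 higher and 5 lower with SGA315. ADAM19, a membrane-anchored metalloproteinase, fell with both (log2 −0.64 ± 0.043, adjusted p = 2.18e-21, and −1.20 ± 0.047, adjusted p = 1.37e-33) and was higher with SGA360 than with SGA315 (0.55 ± 0.050, adjusted p = 8.75e-15), the reverse of the order of MMP1. Of the 11 other inhibitors 8 were tested, with 3 higher and 1 lower with SGA360 and 4 higher and 1 lower with SGA315. SERPINI1, which encodes neuroserpin, an inhibitor of tissue-type activator, rose with both (0.63 ± 0.148, adjusted p = 0.000169, and 1.23 ± 0.137, adjusted p = 3.37e-12). SERPINE2, which encodes an inhibitor of urokinase and thrombin, fell with both (−0.93 ± 0.164, adjusted p = 1.4e-06, and −0.996 ± 0.170, adjusted p = 5.03e-07).

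Of 10 other plasminogen system genes tested, 3 were called higher and 5 lower with SGA360 and 3 higher and 6 lower with SGA315. ANXA2 and S100A10, whose products form a plasminogen-binding complex at the cell surface, fell along with PLAU: the log2 fold changes were −0.69 ± 0.026 and −0.59 ± 0.027 with SGA360 and −0.85 ± 0.026 and −0.99 ± 0.027 with SGA315 (edgeR adjusted p from 4.69e-42 to 5.62e-30). F3, which encodes tissue factor, the starter of clotting, rose with SGA360 (0.48 ± 0.058, adjusted p = 5.01e-11) and had −0.05 ± 0.064 with SGA315 (adjusted p = 0.464). In the list of membrane serine proteases, convertases and Kunitz inhibitors, 11 of 13 were tested, and 1 was higher and 9 lower with SGA360, or 2 higher and 7 lower with totals only, and 0 higher and 9 lower with SGA315. ST14, which encodes matriptase, fell by 0.81 and 1.07 on the log2 scale with SGA360 and SGA315 (adjusted p = 1.04e-35 and 4.88e-42). In the 10 cathepsins and cystatins tested, SGA360 gave 0 higher and 8 lower calls, or 2 higher and 5 lower with totals only, and 1 higher and 7 lower with SGA315.

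Genes of the matrix proteins that such enzymes cut were called in both directions. Of 29 matrix and basement membrane genes 26 were tested, with 7 called higher and 17 lower with SGA360 and 5 higher and 20 lower with SGA315, and SGA360 was the higher of the 2 ligands for 16 and the lower for 4. FN1, which encodes fibronectin, was at 12300 ± 130 CPM with SGA360, 15537 ± 225 with SGA315 and 20801 ± 759 with lovastatin alone, and was thus in the order of MMP1 (SGA360 against SGA315 −0.34 ± 0.028, adjusted p = 2.35e-16). THBS1, which encodes thrombospondin-1, rose with SGA360 (0.20 ± 0.026, adjusted p = 9.72e-10) and fell with SGA315 (−0.62 ± 0.027, adjusted p = 7.69e-31). Among the 17 receptors and surface partners tested, 3 were called higher and 12 lower with SGA360 and 3 higher and 13 lower with SGA315. BSG, whose product basigin is known as an inducer of metalloproteinases, fell by 0.53 and 0.88 on the log2 scale (adjusted p = 9.58e-27 and 2.27e-38).

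AP-1 and ETS factors, the families known to act on the MMP1 and PLAU promoters, were represented by a list of 14, not by every family member. All genes of that list were tested. Of the 14, 2 were higher and 9 lower with SGA360, and 1 was higher and 9 lower with SGA315, or 3 higher and 7 lower with totals only. EHF, an ETS factor, was higher with both, at 2.90 ± 0.334 CPM with SGA360, 4.41 ± 0.638 with SGA315 and 0.788 ± 0.234 with lovastatin alone (SD, n = 3). Only 2 libraries with lovastatin alone reached the filter minimum for EHF, so no p-value is given for it. FOSL1 had 2.92 ± 0.685 CPM with SGA360, 2.77 ± 0.764 with SGA315 and 11.8 ± 0.382 with lovastatin alone (SD, n = 3), with log2 fold changes of −1.98 ± 0.133 (adjusted p = 3.13e-21) and −2.09 ± 0.139 (adjusted p = 1.2e-21). ETS2 fell by 1.02 and 0.99 (adjusted p = 2.44e-29 and 1.28e-28). Neither passed the test between the ligands, where FOSL1 had 0.11 ± 0.189 (adjusted p = 0.67) and ETS2 −0.03 ± 0.054 (adjusted p = 0.714). ETV4 fell with both (−0.996 ± 0.043, adjusted p = 5.71e-31, and −0.76 ± 0.043, adjusted p = 3.4e-25) and was lower with SGA360 than with SGA315 (−0.24 ± 0.048, adjusted p = 2.47e-05). Of the 14, SGA360 was the higher of the 2 ligands for 2 and the lower for 4. FOSL2 was lower with SGA360 than with SGA315 (−0.29 ± 0.039, adjusted p = 4.24e-09), and JUND was higher (0.25 ± 0.043, adjusted p = 9.44e-07). Whether any of these factors bears on the levels of MMP1 or PLAU was not tested.

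**Figure D4:**
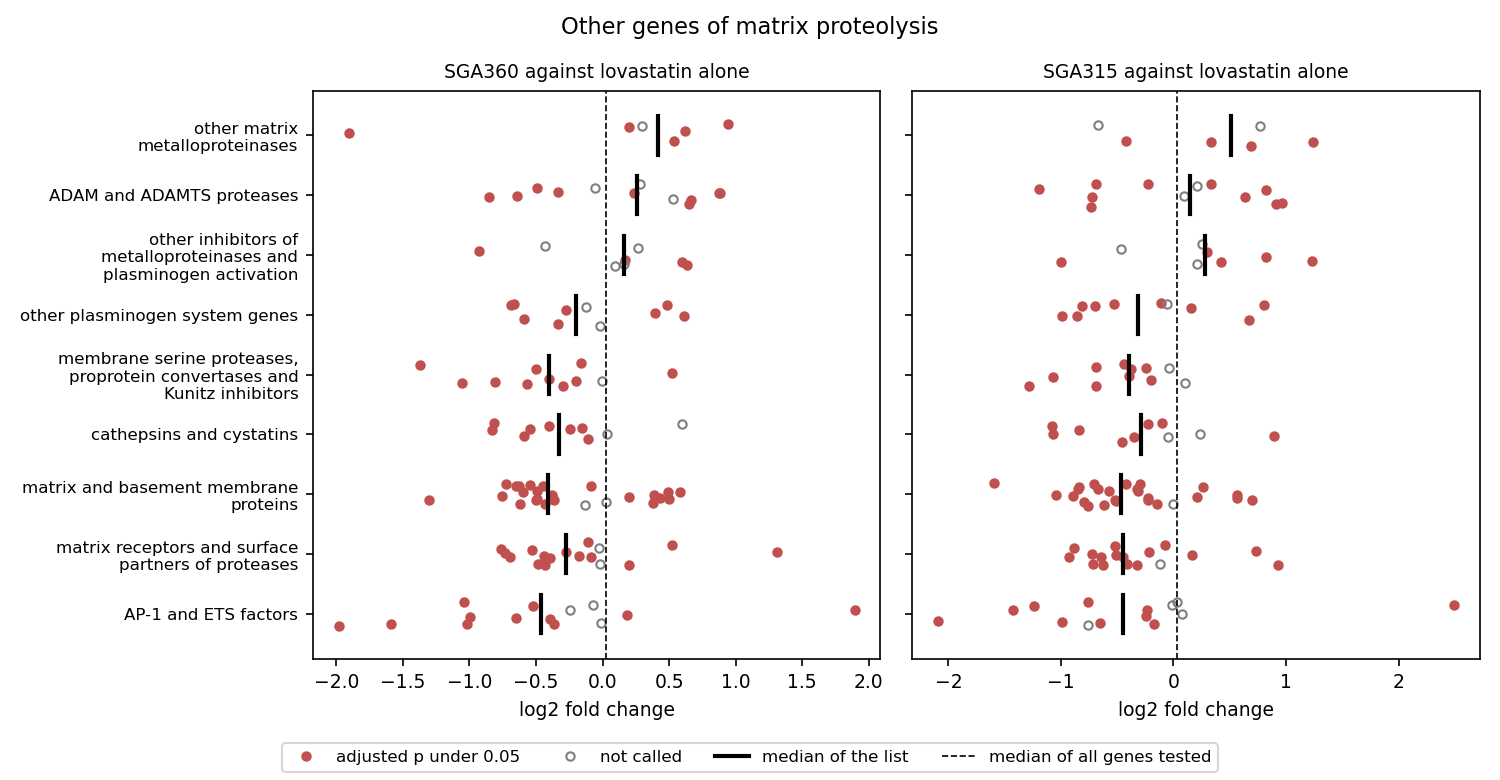
Log2 fold change (horizontal axis) of each tested gene in 9 lists of matrix proteolysis, without the members, for SGA360 (left) and SGA315 (right) against lovastatin alone; filled points passed an adjusted p of 0.05, the thick line is the median of the list and the dashed line that of all genes tested. The medians lie right of the dashed line for the metalloproteinases, the ADAM and ADAMTS proteases and the inhibitors (0.42, 0.26 and 0.16 with SGA360), and left of it for the other 6 lists.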

How the data were processed

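Poly(A) RNA of 9 Caco-2 libraries was sequenced. Read counts, whole and not normalised, were deposited by the authors for each RefSeq transcript, per the file headers. The submitters' processing notes list TopHat2 2.0.13, HTSeq 0.5.4p3 and hg19 with no role for each; strand use, filters and the annotation release are not given. Groups and replicate numbers came from the labels.

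Of 65325 entries, 64346 were named from a RefSeq table of GRCh38.p14 and 545 from GENCODE 29; 434 unnamed entries, 0.255% of counts, stayed out of library sizes and tests. Entries of a gene repeat its reads (the second entry held 99.81% of the first, as a median), so the entry with the highest total stood for each gene, and 43 genes with identical counts were dropped. Transcript lengths, coding sequences and exon overlaps came from GENCODE 29, whose build differs from that of the counts.

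The test of the counts was the quasi-likelihood F test of edgeR 4.0.16 under R 4.3.3 (TMM, filterByExpr with a minimum count of 10 and a minimum total of 15, all 9 libraries in 1 fit, no covariate), with Benjamini-Hochberg adjustment over 14678 genes and calls at 0.05. On simulated data with 200 changed genes it recovered 93%, 95% and 94% of 2-fold changes and 70%, 74% and 56% of 1.25-fold changes for SGA360, SGA315 and their difference. False calls were 2.98%, 3.98% and 5.66% of all calls there. In the data 42.7% to 69.2% of the 14678 genes were called. The simulation changed far fewer, so it does not show how the scaling and the test behave in these data. Alternatives were RLE scaling, totals only, DESeq2 1.42.0, no filter, a fit of just the groups compared, the lowest accession per gene, a replicate block, and each library left out in turn.

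The members and the 9 lists were chosen with earlier results of these data known. Named were all members, genes overlapping them, up to 3 called genes per list and comparison with the smallest adjusted p, and the 5 genes nearest to MMP1 in profile with a mean of at least 5 CPM (log2 CPM with a prior count of 2); ADAMTS4, EHF, DDR2, A2M, APOA4, COL4A1 and metalloproteinases with low counts are named outside this rule, after their values were seen.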

Additional observations from a re-analysis of the deposited data

Results flagged for a closer look

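Among the members, the listed genes, the 5 genes nearest to MMP1 and the cell markers, there were 6 for which every library of one ligand lay above, and every library of the other below, the 3 libraries with lovastatin alone. The share of all genes tested that met this rule was not counted, so nothing is read from the number. Groups stood fully apart for 66.3% of all genes with SGA360, 70.3% with SGA315 and 49.1% between the ligands. All 6 were picked for this separation in these same libraries, so no p-value is given for their difference between the ligands. MMP14 had 68.9 to 71.1 CPM with SGA360, 87.7 to 89.2 CPM with SGA315 and 81.6 to 86.2 CPM with lovastatin alone, a log2 fold change of −0.34 for SGA360 against SGA315. MMP24, a second membrane-type metalloproteinase, went the other way, with 94.3 to 102 CPM with SGA360, 60.2 to 66.3 CPM with SGA315 and 82.1 to 90.0 CPM with lovastatin alone, a difference of 0.62. THBS1 had 493 to 507 CPM with SGA360, 278 to 289 CPM with SGA315 and 436 to 439 CPM with lovastatin alone, a difference of 0.82.

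COL4A1, which encodes a chain of basement membrane collagen, had 18.1 to 22.4 CPM with SGA360, 10.98 to 12.4 CPM with SGA315 and 12.8 to 15.1 CPM with lovastatin alone, a difference of 0.81. Its SGA315 value against lovastatin alone, −0.23 (edgeR adjusted p = 0.0276), was not called under 5 alternatives (adjusted p of 0.0503 without SGA315 replicate 2, 0.0901 without SGA315 replicate 3, 0.182 without lovastatin replicate 3, 0.0587 with DESeq2 and 0.304 with totals only).

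The other 2 are enterocyte markers. FABP1, which encodes the liver-type fatty acid-binding protein, had 22.2 to 26.8 CPM with SGA360, 54.7 to 60.7 CPM with SGA315 and 28.8 to 30.8 CPM with lovastatin alone, a difference of −1.26 for SGA360 against SGA315. APOA4, an apolipoprotein gene, had 2.29 to 3.15 CPM with SGA360, 5.75 to 6.45 CPM with SGA315 and 4.73 to 5.13 CPM with lovastatin alone, a difference of −1.17. Its SGA315 value against lovastatin alone, 0.31 (edgeR adjusted p = 0.0326), was not called under 7 of the 16 alternatives, with adjusted p of 0.0565 to 0.154.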

How the results depend on the processing

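Under 16 alternatives the log2 fold changes of MMP1, MMP15, TIMP1, TIMP3 and PLAU against lovastatin alone kept their direction and call. The number of members called higher was 2 with totals only for SGA360 (TIMP2 0.16 added) and 2 for SGA315 (MMP14 0.19 added), against 1 each. For SGA360 against SGA315 it was 1 to 2 when libraries were left out, the lower value without SGA360 replicate 1, where MMP15 was at 0.12. With totals only, SGA360 values turned for SDC1 (0.0053), LRP1 (0.093), SPINT1 (0.11), CTSD (0.0077), LAMB3 (0.029) and SDC4 (0.030), and SGA315 values for VTN (0.014), CTSD (0.022) and SDC4 (0.044); the cause was not tested. Correlations of deviations between libraries of the same replicate number were small, −0.024 to 0.046. The nearest library of another group had the own number for 6 of 9, so the numbers may pair the libraries weakly. With a replicate block the counts of all genes higher and lower were 4679 and 4658 for SGA360 and 5347 and 4926 for SGA315. Between the ligands they were 3284 and 3154. Those of the members were 1 and 5, 1 and 5, and 2 and 2, in the same order of comparisons. Without SGA315 replicate 2 every SGA315 count of PLAT is 0, so no ratio was computed. PLAT and PLAUR are limited by depth, and TIMP1 and PLAU by counts of 18 to 56 per library.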
